A study of Capra hircus with 6 samples.

Results

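Hyaluronan is a long sugar polymer that gives the matrix around the oocyte its bulk. Before ovulation, cumulus cells secrete it from a synthase at the plasma membrane, and a small set of proteins then crosslinks it into a gel that carries the oocyte out of the follicle. In cattle and in mice HAS2 is the synthase usually named for this step. TNFAIP6 moves the heavy chains of inter-alpha-inhibitor onto hyaluronan, the pentraxin PTX3 tethers those chains, and versican and link protein bind the polymer itself. The same molecules also occur in ovarian stroma, vessels and regressing luteal tissue, and a whole ovary holds all of these.

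The 8 genes described here were taken by name: the synthases HAS2 and HAS3, the matrix proteins VCAN, HAPLN1, PTX3 and TNFAIP6, the receptor CD44 and the hyaluronidase HYAL2. All 8 were found among the 17504 genes listed for each library. The libraries came from whole ovaries of 6 goats (Capra hircus) in the follicular phase, the part of the cycle before ovulation: 3 Jintang black goats, which the labels call prolific, and 3 Tibetan goats, which they call non-prolific. Each library is 1 animal, numbered below as in the sample titles. No age, treatment, follicle size or time relative to the luteinizing hormone surge is given in the labels, and cumulus cells were not isolated.

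Expression was deposited as FPKM, the fragments assigned to a gene divided by transcript length and library size. Levels of different genes can thus be set side by side within a library. Between goats FPKM is relative, because each value depends on the rest of the RNA in its library. FPKM summed to between 602511 and 669309 in Jintang libraries and between 602255 and 682801 in Tibetan libraries. The spacing of low values put relative depth between 0.92 and 1.028 (Tibetan 1 set to 1). Of 13067 genes tested between the breeds with limma, the adjusted p fell under 0.05 for 0 with a higher and 0 with a lower level in Jintang ovaries (0.00% in each direction). At an unadjusted p under 0.05 there were 368 higher and 438 lower, and 456 higher and 308 lower after median-ratio scaling. The median log2 difference over all genes was -0.10 as deposited and 0.02 after that scaling. Leaving out Jintang 3 gave 13 genes higher and 0 lower at that adjusted threshold, and the smallest adjusted p of a member over all such fits was 0.268 (PTX3). The table for Tibetan 2 carries a name of another form than the other 5, and the labels do not say why.

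Granulosa markers were detected in every library and spread widely in level: the 10 genes of that list summed to between 210 and 365 FPKM in Jintang ovaries and between 270 and 1347 FPKM in Tibetan ovaries. FSHR, the follicle-stimulating hormone receptor of granulosa cells, stood at 5.94, 1.51 and 10.66 FPKM in Jintang 1, 2 and 3, and at 0, 5.66 and 1.21 FPKM in Tibetan 1, 2 and 3. The 7 matched oocyte markers summed to between 4.33 and 23.67 FPKM in Jintang ovaries and between 0.96 and 20.22 FPKM in Tibetan ovaries. ACTA2, smooth muscle actin, was at 936 FPKM or more in every library. In whole-tissue RNA, fewer cells of a type and less RNA per cell cannot be told apart.

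**Figure D1:**
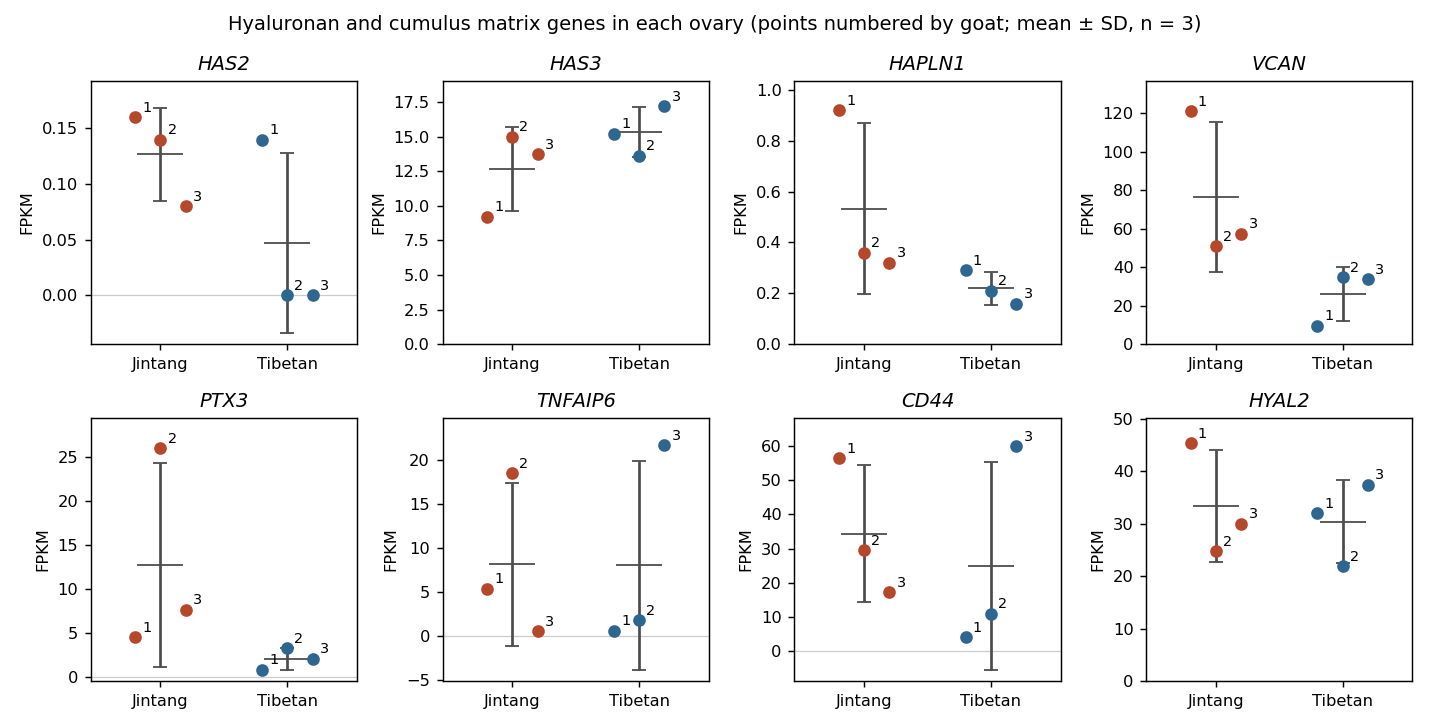
FPKM (vertical axis, linear) of each of the 8 genes in Jintang and Tibetan ovaries; points are single goats numbered as in the titles, with a dash and bar for mean ± SD (n = 3). The lowest Jintang value of VCAN, PTX3 and HAPLN1 lies above the highest Tibetan value, as it does for 3.20% of all tested genes. HAPLN1 was below 1 FPKM throughout and was not tested, and its gap is narrow (0.32 FPKM in Jintang 3, 0.29 FPKM in Tibetan 1). The other 5 genes overlapped between the breeds.

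The synthases came first in the pathway and differed greatly in level from each other. HAS3 was the synthase present: it made up between 98.3% and 99.4% of the summed FPKM of HAS1, HAS2 and HAS3 in Jintang libraries, and 99.1% in Tibetan 1 and 2. It was the 1 synthase above 0 in Tibetan 3. HAS3 stood at 9.21, 15.01 and 13.73 FPKM in Jintang 1, 2 and 3, and at 15.22, 13.63 and 17.21 FPKM in Tibetan 1, 2 and 3. Jintang 1 was the lowest of the 6 and the ranges overlapped. It was the steadiest of the 8 genes, with the highest ovary 1.87 times the lowest. The mean was 12.65 ± 3.05 FPKM in Jintang ovaries and 15.35 ± 1.79 FPKM in Tibetan ovaries (SD, n = 3 each; log2 difference -0.28, 95% interval -0.92 to 0.36, limma adjusted p = 0.812).

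HAS2 was close to the limit of what these libraries list. It stood at 0.16, 0.14 and 0.08 FPKM in Jintang 1, 2 and 3, against 0.14 FPKM in Tibetan 1 and a listed value of 0 in Tibetan 2 and 3. HAS1 was listed at 0 in all 3 Jintang libraries and in Tibetan 1 and 3, and at 0.13 FPKM in Tibetan 2. Neither gene reached 1 FPKM in any library, so neither entered the test, and no fold is given. The log2 ratio of HAS2 to HAS3 (1 FPKM added to each) averaged -3.57 ± 0.38 in Jintang and -3.96 ± 0.20 in Tibetan ovaries (SD, n = 3 each; difference 0.39, exact permutation p = 0.10, 2-sided, the smallest that 3 against 3 goats can give). With 0.1 FPKM added in place of 1 that difference was 1.04 (exact permutation p = 0.20), so its size depends on the value added to a gene near 0. With 1 FPKM added, the ratio mostly followed HAS3, because HAS2 was at 0.16 FPKM or below. The breeds were then parted only narrowly, with -3.81 in Jintang 2 against -3.83 in Tibetan 1.

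Among the matrix proteins, versican had the highest level. VCAN encodes a large proteoglycan that binds hyaluronan at one end and cell surfaces at the other, and its cleavage accompanies cumulus expansion in mice. It stood at 121.05, 50.98 and 57.42 FPKM in Jintang 1, 2 and 3, against 9.72, 34.68 and 33.92 FPKM in Tibetan 1, 2 and 3. The breeds did not overlap, with Jintang higher; Jintang 1 was far above the other 2 of its breed and Tibetan 1 far below its own. The mean was 76.5 ± 38.7 FPKM in Jintang ovaries and 26.1 ± 14.2 FPKM in Tibetan ovaries (SD, n = 3 each), a ratio of means of 2.93. The log2 difference was 1.60 (SE 0.54, 95% interval 0.37 to 2.83) and did not pass (limma adjusted p = 0.743). It was 1.03 without Tibetan 1 and 1.89 without Tibetan 2. The deposited value sums 4 listed transcripts, so the splice forms of versican cannot be told apart.

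HAPLN1, or link protein, locks hyaluronan to proteoglycans such as versican, and in the RefSeq table of assembly ARS1.2 it is the next protein-coding gene to VCAN. It stood at 0.92, 0.36 and 0.32 FPKM in Jintang 1, 2 and 3, against 0.29, 0.21 and 0.16 FPKM in Tibetan 1, 2 and 3. The Jintang ovaries again lay above the Tibetan ovaries, and Jintang 1 was again the highest. No library reached 1 FPKM, so HAPLN1 did not enter the test, and the gap between the lowest Jintang and the highest Tibetan value was small beside the spread within Jintang ovaries. Another link protein gene, HAPLN3, stood higher, at 7.98, 7.68 and 2.69 FPKM in Jintang 1, 2 and 3, and at 3.55, 1.50 and 4.87 FPKM in Tibetan 1, 2 and 3, with overlap.

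PTX3 had the largest log2 difference of the 6 tested members. PTX3 is a long pentraxin that crosslinks hyaluronan through the heavy chains bound to it, and mice without it are subfertile with an unstable cumulus; macrophages, endothelial cells and fibroblasts make it as well. It stood at 4.56, 26.01 and 7.68 FPKM in Jintang 1, 2 and 3, against 0.84, 3.26 and 2.09 FPKM in Tibetan 1, 2 and 3. The breeds did not overlap, and Jintang 2 stood apart from the other 5. The mean was 12.8 ± 11.6 FPKM in Jintang ovaries and 2.06 ± 1.21 FPKM in Tibetan ovaries (SD, n = 3 each), and the log2 difference was 1.92 (SE 0.59, 95% interval 0.55 to 3.28), which did not pass (limma adjusted p = 0.743). Without Jintang 2 it was 1.26, and without Jintang 1 it was 2.40. In the ARS1.2 table PTX3 overlaps VEPH1, and no source states that strand was used in counting; VEPH1 stood at 1.52, 0.52 and 1.50 FPKM in Jintang 1, 2 and 3, and at 0.23, 1.28 and 0.36 FPKM in Tibetan 1, 2 and 3, without the peak of PTX3 in Jintang 2.

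TNFAIP6, also called TSG-6, is the protein that catalyses the transfer of heavy chains to hyaluronan, and in mice it is induced in the cumulus by the ovulatory signal. It varied more than any other member that was above 0 in every library, with the highest ovary 36.8 times the lowest. TNFAIP6 stood at 5.42, 18.52 and 0.59 FPKM in Jintang 1, 2 and 3, and at 0.65, 1.80 and 21.70 FPKM in Tibetan 1, 2 and 3. Each breed thus held 1 ovary near 20 FPKM and 1 below 1 FPKM, and the ranges overlapped almost fully. The means were 8.18 ± 9.28 FPKM in Jintang and 8.05 ± 11.8 FPKM in Tibetan ovaries (SD, n = 3 each; log2 difference 0.31, 95% interval -2.28 to 2.89, limma adjusted p = 0.953). The log2 difference turned negative when Jintang 2 (-0.56), Tibetan 1 (-0.45) or Tibetan 2 (-0.07) was left out.

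CD44, the main cell-surface receptor for hyaluronan, is carried by cumulus cells, leukocytes and mesenchymal cells. It stood at 56.35, 29.58 and 17.26 FPKM in Jintang 1, 2 and 3, and at 4.13, 11.03 and 59.91 FPKM in Tibetan 1, 2 and 3. Tibetan 3 was the highest of all and the other 2 Tibetan ovaries were the lowest. The means were 34.4 ± 20.0 FPKM in Jintang and 25.0 ± 30.4 FPKM in Tibetan ovaries (SD, n = 3 each; log2 difference 1.03, 95% interval -0.90 to 2.96, limma adjusted p = 0.785). The log2 difference was 2.02 without Tibetan 3 and 0.23 without Tibetan 1.

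HYAL2, which cuts long hyaluronan at the cell surface into shorter pieces, was the second steadiest member, 2.08 times as high in the highest ovary as in the lowest. It stood at 45.35, 24.71 and 30.00 FPKM in Jintang 1, 2 and 3, and at 32.00, 21.85 and 37.43 FPKM in Tibetan 1, 2 and 3, with overlap. The means were 33.4 ± 10.7 FPKM in Jintang and 30.4 ± 7.91 FPKM in Tibetan ovaries (SD, n = 3 each; log2 difference 0.12, 95% interval -0.63 to 0.87, limma adjusted p = 0.935). Its sign turned without Jintang 1 (-0.12) or Tibetan 2 (-0.10). The log2 ratio of summed HAS2 and HAS3 to HYAL2 (1 FPKM added to each side) was -2.16, -0.67 and -1.07 in Jintang 1, 2 and 3, and -1.01, -0.64 and -1.08 in Tibetan 1, 2 and 3. The hyaluronidase gene was above the synthase genes in all 6 ovaries, furthest so in Jintang 1, and the breeds did not separate (difference -0.39, exact permutation p = 0.50, 2-sided, and 0.04 without Jintang 1).

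**Figure D2:**
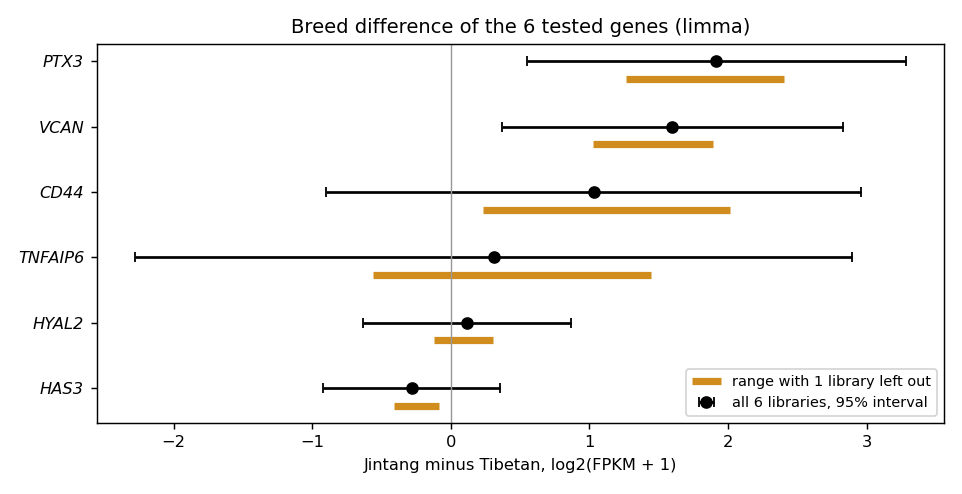
Difference between the breeds on the log2(FPKM + 1) scale (horizontal axis, Jintang minus Tibetan) for the 6 genes tested, with the limma 95% interval in black and the range over fits that leave out 1 library in orange. The intervals of PTX3 and VCAN lie above 0 before adjustment over all genes, and the bars of TNFAIP6 and HYAL2 cross 0 when 1 library is left out.

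Of the 8 genes, 6 passed the filter of at least 1 FPKM in at least 3 libraries, and HAS2 and HAPLN1 did not. None of the 6 passed limma at an adjusted p under 0.05, against 0.00% of all tested genes in each direction. VCAN and PTX3 were the 2 members at an unadjusted p under 0.05, both higher in Jintang ovaries, where 2.82% of all tested genes were higher and 3.35% lower at that level. The same 2 of 6 had every Jintang ovary above every Tibetan ovary, as had 3.20% of all tested genes, and 0 of 6 had every Jintang ovary below, as had 6.70%. The log2 difference was above 0 in 5 of 6, and in 41.0% of all tested genes. The median was 0.67 over the 6 and -0.10 over all genes. These 6 genes were chosen with earlier results on PTX3 known, so the counts describe them and no more.

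The order of the genes by level changed from ovary to ovary. VCAN was the highest of the 8 in Jintang 1, 2 and 3 and in Tibetan 2, while HYAL2 was the highest in Tibetan 1 and CD44 in Tibetan 3. HAPLN1 and HAS2 were the lowest pair in all 6. By breed mean, VCAN led in Jintang ovaries, followed by CD44 and HYAL2, then PTX3, HAS3 and TNFAIP6. In Tibetan ovaries HYAL2, VCAN and CD44 led, followed by HAS3, TNFAIP6 and PTX3. Neighbours in this order that differed by less than the larger of their SDs were CD44 and HYAL2, and PTX3, HAS3 and TNFAIP6, in Jintang ovaries. In Tibetan ovaries they were all of HYAL2, VCAN, CD44, HAS3, TNFAIP6 and PTX3. The 8 genes summed to 243, 165 and 127 FPKM in Jintang 1, 2 and 3, and to 63.0, 86.5 and 172 FPKM in Tibetan 1, 2 and 3. Tibetan 3 thus lay above 2 of the Jintang ovaries, with CD44 as its largest part.

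The members did not peak together. Jintang 1 had the highest value of VCAN, HAPLN1, HYAL2 and HAS2 and the lowest of HAS3. Jintang 2 had the highest PTX3, and Tibetan 3 the highest HAS3, TNFAIP6 and CD44. Tibetan 1 was the lowest in VCAN, PTX3 and CD44. The ratio of VCAN to PTX3 in FPKM was 26.6, 1.96 and 7.48 in Jintang 1, 2 and 3, and 11.6, 10.6 and 16.2 in Tibetan 1, 2 and 3. The share of VCAN in the summed FPKM of the 8 genes ran from 30.8% to 49.8% in Jintang ovaries and from 15.4% to 40.1% in Tibetan ovaries.

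Likeness between profiles was measured as the root mean square difference between 2 genes over the 6 libraries, in log2(FPKM + 1) centred on each gene's mean, for the 4 members whose extremes lay at least 2 log2 units apart. The nearest genes to PTX3 were DLGAP5 (0.26), KIAA0101 (0.28) and AURKB (0.29), which act in mitosis or DNA replication. DLGAP5 stood at 1.14, 11.82 and 2.54 FPKM in Jintang 1, 2 and 3, and at 0.10, 1.46 and 0.85 FPKM in Tibetan 1, 2 and 3, with the same peak in Jintang 2. The nearest to TNFAIP6 were ACSL4 (0.34), which activates polyunsaturated fatty acids, MLIP (0.47) and the lipid peroxide reductase GPX4 (0.47). ACSL4 stood at 26.83, 119.47 and 12.71 FPKM in Jintang 1, 2 and 3, and at 7.60, 11.22 and 136.66 FPKM in Tibetan 1, 2 and 3. Both TNFAIP6 and ACSL4 were therefore high in Jintang 2 and Tibetan 3.

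The nearest genes to VCAN were MCUB (0.20), a subunit of the mitochondrial calcium channel, FERMT3 (0.22), a kindlin of blood cells, and RAB11FIP1 (0.28). FERMT3 stood at 15.97, 5.87 and 5.94 FPKM in Jintang 1, 2 and 3, and at 1.02, 3.82 and 3.31 FPKM in Tibetan 1, 2 and 3. The nearest to CD44 were HIGD1B (0.26), STXBP2 (0.33) and ANXA3 (0.37). CD44 was 0.82 from VCAN and 0.99 from TNFAIP6, and PTX3 was 1.06 from VCAN and 1.57 from TNFAIP6. The nearest genes were picked for their small distances, so larger distances between members do not show that members were unlike. Ranked by nearness among the genes with a symbol, VCAN was at rank 203 for CD44, and CD44 at rank 204 for TNFAIP6. For PTX3, VCAN was at rank 1712 and TNFAIP6 at rank 9728. These distances, over 6 libraries and among 13067 genes, are a description.

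**Figure D3:**
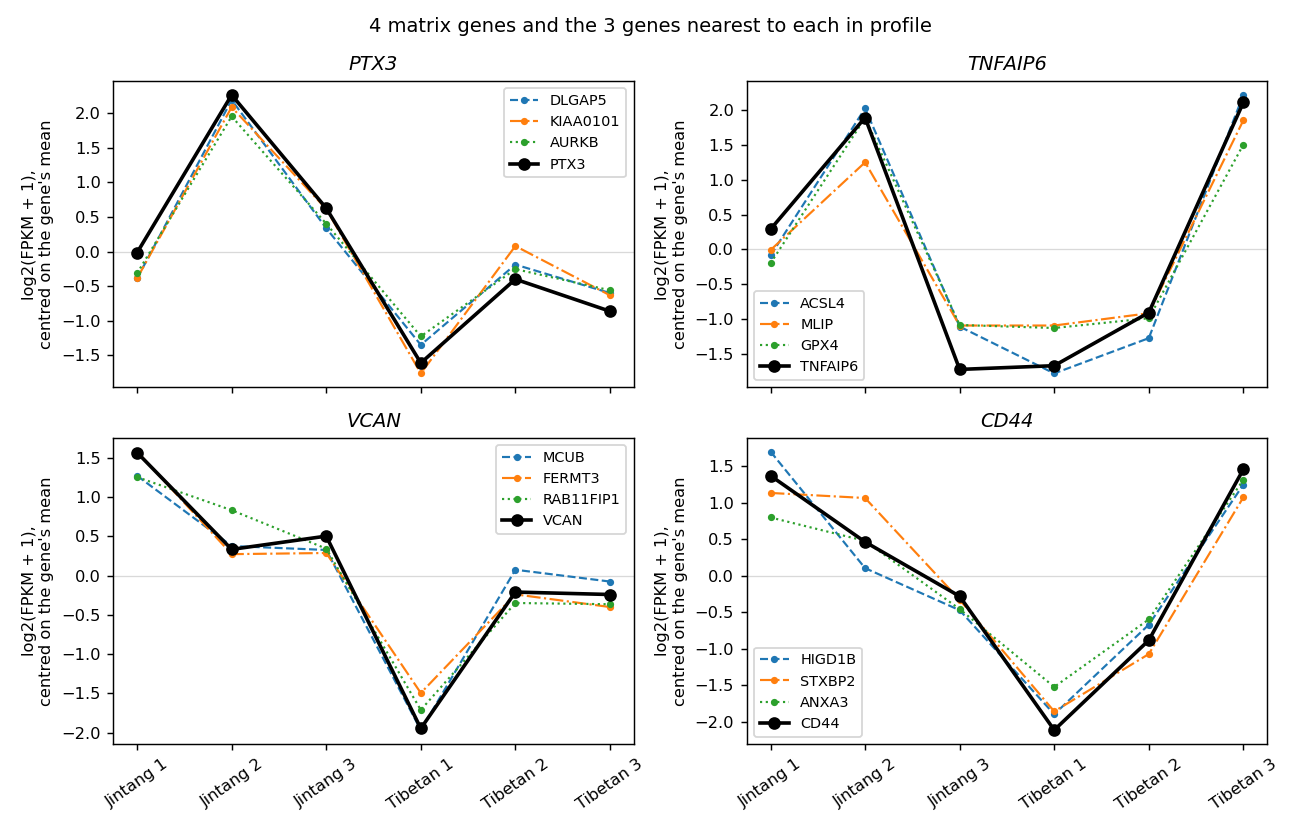
Centred log2(FPKM + 1) (vertical axis) in each library (horizontal axis) for PTX3, TNFAIP6, VCAN and CD44 in black and for the 3 named genes nearest to each in colour; lines only join the values of a gene. PTX3 peaks in Jintang 2, TNFAIP6 in Jintang 2 and Tibetan 3, VCAN in Jintang 1, and CD44 in Jintang 1 and Tibetan 3.

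The sugar supply for hyaluronan showed no breed difference in the test. Hyaluronan is built from UDP-glucuronate, which UGDH makes, and UDP-N-acetylglucosamine, whose synthesis GFPT1 and GFPT2 begin. Of 8 tested genes of synthesis and sugar supply, 4 were higher and 4 lower in Jintang ovaries and none passed (median log2 difference -0.0012). GFPT2 stood at 48.33, 175.53 and 18.04 FPKM in Jintang 1, 2 and 3, and at 31.97, 26.38 and 89.70 FPKM in Tibetan 1, 2 and 3. UGDH stood at 15.41, 40.13 and 12.63 FPKM in Jintang 1, 2 and 3, and at 16.42, 16.23 and 40.69 FPKM in Tibetan 1, 2 and 3. Both were highest in Jintang 2 and Tibetan 3, the ovaries with the highest TNFAIP6. By the smallest p the list was led by GFPT1 (log2 difference 0.35), UAP1 (-0.24) and UGP2 (-0.18), all at a limma adjusted p of 0.782 or above.

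Among 5 tested genes of hyaluronan breakdown, 4 were higher in Jintang ovaries and none passed (median log2 difference 0.25). CEMIP, which binds hyaluronan and is needed for its breakdown in skin fibroblasts, stood at 31.87, 12.99 and 1.27 FPKM in Jintang 1, 2 and 3, against 1.54, 1.24 and 0.65 FPKM in Tibetan 1, 2 and 3. Jintang 1 and 2 were high, and Jintang 3 lay within the Tibetan range (log2 difference 2.27, 95% interval 0.31 to 4.22, limma adjusted p = 0.743). CEMIP2, a cell-surface relative of CEMIP, stood at 16.63, 17.59 and 15.81 FPKM in Jintang 1, 2 and 3, against 13.91, 14.03 and 13.46 FPKM in Tibetan 1, 2 and 3. The breeds did not overlap in this 1 of 5 genes, by a narrow margin, where 3.20% of all tested genes had Jintang above and 6.70% below (log2 difference 0.26, limma adjusted p = 0.798). HYAL1, the lysosomal hyaluronidase and the neighbour of HYAL2 in the ARS1.2 table, was at a level similar to that of HYAL2, between 23.50 and 41.01 FPKM in Jintang ovaries and between 21.39 and 29.46 FPKM in Tibetan ovaries. HYAL3 ran from 4.19 to 4.82 FPKM in Jintang ovaries and from 4.57 to 10.18 FPKM in Tibetan ovaries.

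Receptors and other binding proteins gave 3 of 5 tested genes higher in Jintang ovaries and none past the test (median log2 difference 0.14). They were HMMR, a hyaluronan-binding protein of the mitotic spindle, LYVE1, the hyaluronan receptor of lymphatic endothelium, and LAYN, HAPLN3 and HABP4. HMMR stood at 0.93, 8.06 and 2.18 FPKM in Jintang 1, 2 and 3, and at 0.72, 3.41 and 1.57 FPKM in Tibetan 1, 2 and 3, highest in Jintang 2 as PTX3 was. ACAN, NCAN and BCAN, the other hyaluronan-binding proteoglycans, were at 0.31 FPKM or below in every library, so VCAN was the proteoglycan of this family that was present.

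The heavy chains of inter-alpha-inhibitor, which TNFAIP6 transfers, were nearly absent as transcripts. ITIH1, ITIH2 and ITIH3, which encode them, and AMBP, which encodes the light chain, were at 0.22 FPKM or below in all 6 libraries, and none entered the test. The liver is the known source of these proteins in serum. ITIH4, a relative found in serum that carries no light chain, stood at 401.22, 196.36 and 42.67 FPKM in Jintang 1, 2 and 3, and at 26.81, 29.81 and 64.63 FPKM in Tibetan 1, 2 and 3. Jintang 1 and 2 stood above the others and Jintang 3 fell within the Tibetan range (log2 difference 1.98, 95% interval 0.25 to 3.72, limma adjusted p = 0.743). ITIH5, of the same list, was well above 1 FPKM in every library. It stood at 73.21, 20.11 and 71.77 FPKM in Jintang 1, 2 and 3. In Tibetan 1, 2 and 3 it stood at 69.05, 47.41 and 24.18 FPKM, with overlap (log2 difference 0.14).

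Of 5 tested proteases that cleave versican, 4 were higher in Jintang ovaries and none passed (median log2 difference 0.78). ADAMTS1, the member most studied in the ovulating mouse follicle, stood at 54.23, 17.98 and 35.92 FPKM in Jintang 1, 2 and 3, and at 37.84, 50.47 and 31.81 FPKM in Tibetan 1, 2 and 3, with overlap. ADAMTS5 stood at 20.91, 2.41 and 3.00 FPKM in Jintang 1, 2 and 3, against 1.02, 2.15 and 1.57 FPKM in Tibetan 1, 2 and 3. The breeds did not overlap in this 1 of 5 genes, by a small margin outside Jintang 1, where 3.20% of all tested genes had Jintang above and 6.70% below (log2 difference 1.40, limma adjusted p = 0.743). ADAMTS15 and ADAMTS4 had log2 differences of 0.83 and 0.78 at the same limma adjusted p of 0.743.

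**Figure D4:**
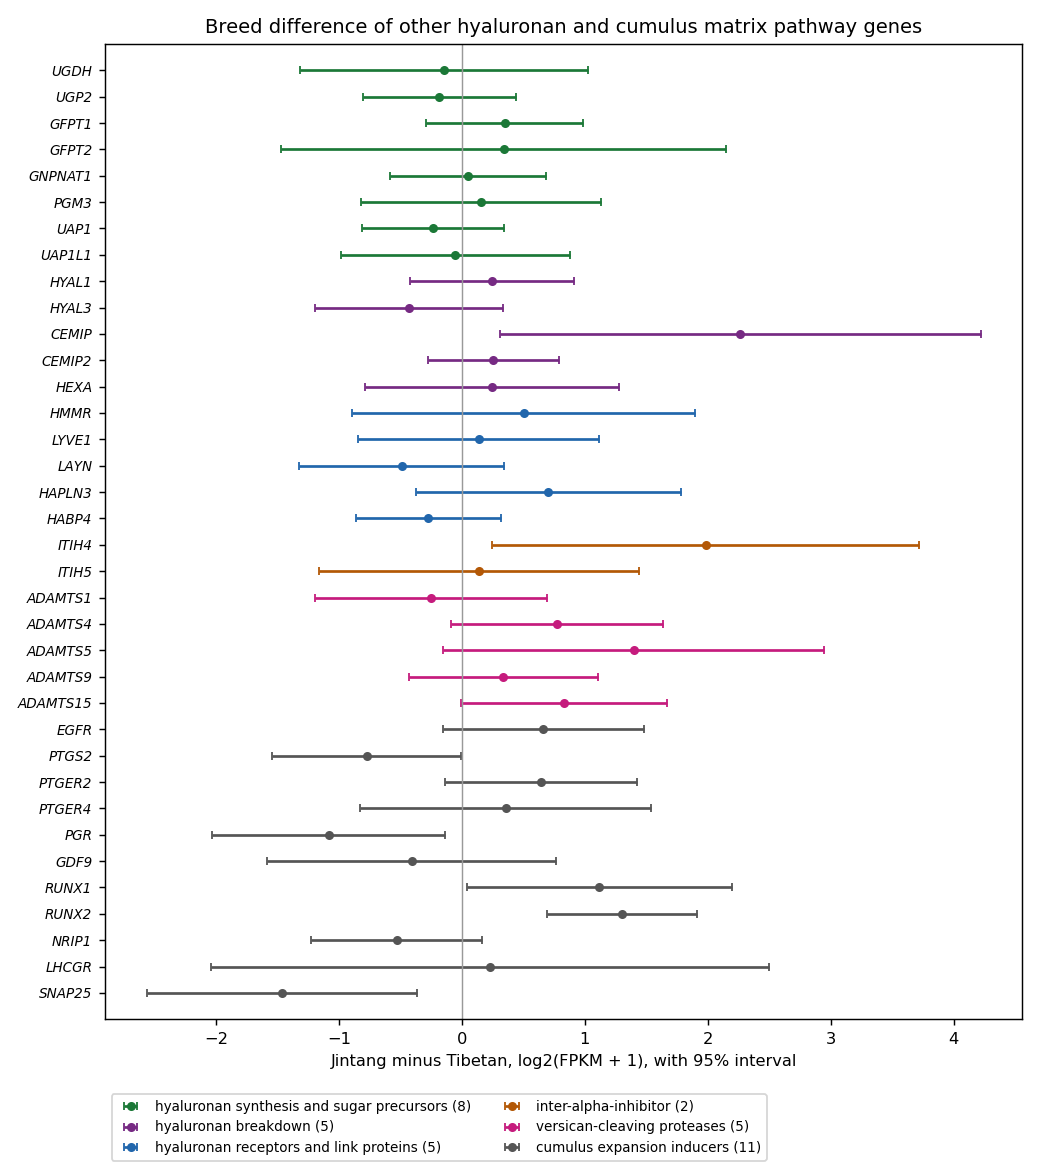
Difference between the breeds on the log2(FPKM + 1) scale (horizontal axis, Jintang minus Tibetan, with limma 95% intervals) for the tested genes of 6 lists around hyaluronan and the cumulus matrix, coloured by list. The intervals of CEMIP, ITIH4, RUNX1 and RUNX2 lie above 0 and those of PTGS2, PGR and SNAP25 below 0, and none passed the adjustment over all 13067 genes.

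Genes listed around cumulus expansion and the ovulatory signal, not all of which induce the matrix themselves, pointed in mixed directions. Of 11 tested, 6 were higher and 5 lower in Jintang ovaries and none passed (median log2 difference 0.23). RUNX2, a transcription factor that rises in ovulatory follicles of rodents, stood at 17.72, 21.34 and 13.78 FPKM in Jintang 1, 2 and 3, against 6.33, 6.80 and 6.17 FPKM in Tibetan 1, 2 and 3 (log2 difference 1.30, limma adjusted p = 0.743). PGR, the progesterone receptor, stood at 2.25, 8.99 and 4.68 FPKM in Jintang 1, 2 and 3, against 11.01, 12.43 and 9.90 FPKM in Tibetan 1, 2 and 3, and so lay below without overlap (log2 difference -1.08, limma adjusted p = 0.743). SNAP25 stood at 11.7, 7.02 and 19.74 FPKM in Jintang 1, 2 and 3, and at 60.69, 33.31 and 19.97 FPKM in Tibetan 1, 2 and 3. It lay below without overlap too (-1.46), but Jintang 3 and Tibetan 3 nearly met. PTGS2, the prostaglandin synthase whose product acts on cumulus cells, stood at 0.53, 0.54 and 1.25 FPKM in Jintang 1, 2 and 3. In Tibetan 1, 2 and 3 it stood at 1.71, 2.43 and 1.85 FPKM, below without overlap (-0.77). PTGS2 was near the filter, with 4 libraries at 1 FPKM or more. Both genes had a limma adjusted p of 0.743. Of the 11, 1 (RUNX2) had every Jintang ovary above every Tibetan ovary, as had 3.20% of all tested genes. Another 3 had every Jintang ovary below, as had 6.70%.

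The EGF-family ligands that carry the ovulatory signal to the cumulus were near 0 in all but 1 ovary. EREG stood at 0.48, 15.05 and 0.05 FPKM in Jintang 1, 2 and 3, and at 0, 0 and 0.15 FPKM in Tibetan 1, 2 and 3. AREG was at 0.89 FPKM in Jintang 2 and at 0.16 FPKM or below elsewhere, and BTC at 1.44 FPKM in Jintang 2 and at 0.43 FPKM or below elsewhere. Jintang 2 was also the ovary with the highest PTX3 and the second highest TNFAIP6, while its HAS2 was 0.14 FPKM. None of the 3 ligands reached the filter.

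Marker sums of several cell types were high or low in some of the same ovaries as these genes, and not in others. Counts of markers higher or lower are by the difference of mean log2(FPKM + 1) between the breeds. Luteal markers were higher in Jintang ovaries in 8 of 8 (median log2 difference 1.97), although the mean FPKM of LHCGR, the luteinizing hormone receptor, was 16.1 in Jintang and 22.0 in Tibetan ovaries. The luteal list shares LHCGR, STAR and CYP11A1 with the theca list. It summed to 6455, 20140 and 535 FPKM in Jintang 1, 2 and 3, and to 377, 591 and 2738 FPKM in Tibetan 1, 2 and 3. Jintang 2, Jintang 1 and Tibetan 3 led in that order, and they were also the 3 ovaries with the highest TNFAIP6, CD44, GFPT2 and ITIH4. TIMP1 was the largest part of the luteal sum in every ovary, at 5304 FPKM in Jintang 1 and 1298 FPKM in Tibetan 3. PTGFR and PRLR were also higher in Jintang 1 than in Tibetan 3. LHCGR, STAR, CYP11A1, SCARB1 and FDX1 were lower, so the order of these ovaries depends on TIMP1. Macrophage and myeloid markers were higher in 11 of 11 (median 1.30) and summed to 1558, 175 and 359 FPKM in Jintang 1, 2 and 3, and to 101, 265 and 200 FPKM in Tibetan 1, 2 and 3, with Jintang 1 highest and Tibetan 1 lowest, as for VCAN. Jintang 2 lay below Tibetan 2 and 3 in that sum but above both in VCAN and PTX3. Fibroblast markers were higher in 9 of 9 (median 1.11), although the mean FPKM of DPT was 180.5 in Jintang and 192.8 in Tibetan ovaries, with sums from 3998 to 11370 FPKM in Jintang and from 2247 to 4341 FPKM in Tibetan ovaries. Smooth muscle markers were lower in 7 of 7 (median -0.84), with sums from 2023 to 8045 FPKM in Jintang and from 4101 to 8194 FPKM in Tibetan ovaries. No marker of these 4 lists was at 0 in any library, none of their genes passed the test, and their part in the values of VCAN, PTX3, CD44 and TNFAIP6 was not tested.

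The medians of the other cell type lists were nearer to 0. Endothelial markers were higher in 7 of 9 tested (median 0.60), lymphatic endothelial markers in 5 of 5 (0.50) and lymphocyte markers in 8 of 10 (0.30). Lymphatic markers summed to between 329 and 391 FPKM in Jintang and between 98.1 and 216 FPKM in Tibetan ovaries, without overlap. CCL21 was the largest part of that sum in every ovary. It stood at 201.48, 213.47 and 308.26 FPKM in Jintang 1, 2 and 3, against 44.15, 111.01 and 84.3 FPKM in Tibetan 1, 2 and 3. CCL21 and FLT4 were the 2 of 5 without overlap, where 3.20% of all tested genes had Jintang above. LYVE1, PROX1 and PDPN overlapped. The sums of the luteal, myeloid, fibroblast and smooth muscle lists overlapped. Granulosa markers were higher in 5 of 10 (median 0.10), theca markers in 3 of 5 (0.23), oocyte markers in 3 of 4 (0.28) and surface epithelium markers in 2 of 5 (-0.59). Surface epithelium markers had 2 of 5, KRT7 and EPCAM, with every Jintang ovary below, as had 6.70% of all tested genes. Every Jintang ovary was above in 1 of 10 granulosa, 1 of 11 myeloid and 1 of 9 fibroblast markers. The sum of the granulosa markers was highest in Tibetan 3, where INHA alone was 1194 FPKM. No gene of these lists passed the test.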

How the data were processed

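Per the labels' protocols, ovarian RNA of single goats was isolated with TRIzol, and NEBNext reagents were used for the libraries. The authors deposited 1 table of FPKM values per goat, for 17504 genes. TopHat2 2.0.10, Bowtie2 2.1.0 and RSEM 1.2.0 are listed without roles, per the submitters' processing notes. Not given in the sources used here are read length, strand, genome build and absolute depth. A table of the whole series with 6 columns was not used. No 2 libraries were identical.

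GeneIDs were matched to the RefSeq table of ARS1.2 (16457 by GeneID, 9 by accession; 1038 kept their ID), and CEMIP2 is listed there as TMEM2. The 13067 genes that reached 1 FPKM in 3 or more libraries were fitted with limma 3.58.1 in R 4.3.3 (intensity trend, breed as the only term) on log2(FPKM + 1), with Benjamini-Hochberg adjustment, 2-sided, at 0.05. This scale understates the change of low genes, and FPKM is relative within a library. Ratios were compared by exact permutation with scipy 1.17.1. The fit was tested on simulated data. Each library is a separate goat, so p-values measure the spread between animals.

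The 8 members and the gene lists were chosen with earlier results of these data known. All members were named, plus up to 3 genes per list with the smallest p, genes needed to describe a level, and the 3 nearest profiles. Other genes with values in the text were picked after their values were seen. List entries without a match were SPAM1, GUSB, STAB1, HAPLN2, HAPLN4, CEBPB, SULT1E1, INSL3, OOEP, DPPA3, CD163, KRT19 and UPK3B. Alternatives were another pseudocount (0.1), no filter, a filter at 5 FPKM, median-ratio and TPM scaling, no trend, a replicate block and leaving out each library. A gene of the lists is not reported here.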

Additional observations from a re-analysis of the deposited data

How the results depend on the processing

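No member passed an adjusted p under 0.05 in any setting tried. The direction of the 6 tested members was the same with a pseudocount of 0.1, no filter, median-ratio or TPM scaling, no trend, and the replicate block. A filter at 5 FPKM left PTX3 out and changed no direction of the other 5. Over the fits that leave out 1 library, the log2 difference ran from 1.26 to 2.40 for PTX3, from 1.03 to 1.89 for VCAN, from 0.23 to 2.02 for CD44, from -0.56 to 1.44 for TNFAIP6, from -0.12 to 0.30 for HYAL2 and from -0.41 to -0.08 for HAS3. The sign turned for TNFAIP6 without Jintang 2 (-0.56), Tibetan 1 (-0.45) or Tibetan 2 (-0.07), and for HYAL2 without Jintang 1 (-0.12) or Tibetan 2 (-0.10). The difference in the log2 ratio of HAS2 to HAS3 ran from 0.17 to 0.51, and that of HAS2 plus HAS3 to HYAL2 from -0.70 to 0.043, with the sign turned without Jintang 1. The number of genes past the threshold ran from 0 to 13, and at an unadjusted p under 0.05 from 336 (without Tibetan 1) to 1874 (without Jintang 3).

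The replicate numbers are those of different animals, and same-numbered libraries did not deviate together (correlations -0.02, -0.21 and -0.47; 0 of 6 libraries were closest to their own number). The replicate block gave 0 genes past the threshold and 581 at an unadjusted p under 0.05, against 806 without it, and the log2 differences of PTX3 and VCAN were 1.92 and 1.60 (limma adjusted p = 0.952 for both). The low level of HAS2 and HAPLN1, below 1 FPKM throughout, limits what can be said of either gene.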
